A study of Mus musculus with 28 samples.

Results

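The extracellular metalloproteinases and their inhibitors were examined as a group of 79 genes among the 28244 genes of the count table. The members were taken by symbol alone, as the genes named Mmp, Adam, Adamts or Timp followed by a number. This rule uses no measured value, but it was chosen with earlier results of these data known. They comprised 23 matrix metalloproteinases (Mmp), 33 Adam genes, 19 Adamts genes and 4 tissue inhibitors of metalloproteinases (Timp).

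Metalloproteinases of these families use a zinc ion to cut proteins outside the cell or at its surface. Secreted Mmps open up collagens and other matrix proteins, membrane-bound Mmps do so at the cell border, Adams shed the outer parts of membrane proteins such as growth factors and Notch, and Adamts enzymes trim procollagens and the proteoglycans of brain and cartilage. Timps block the active site, each with its own range of targets, and neural stem cells (NSCs) are known to live in and remodel a matrix rich in such proteoglycans.

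The data were bulk poly(A) RNA-seq of mouse cells in 28 samples and 11 groups, and the study asked whether peripheral neural stem cells (pNSCs), derived outside the central nervous system, resembled brain NSCs rather than neural crest stem cells (NCSCs) or the tissue of origin. The samples formed 3 experiments named for the reporter of the donor mice. All samples carry the strain label C57BL/6, whereas the methods name other breeding backgrounds. Brain NSCs came from whole brain, and all NSC and pNSC lines were grown in NSC medium with EGF and bFGF.

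The Nes-GFP mice express GFP under Nestin regulatory elements, and this experiment held 2 samples each of brain NSCs (Brain-NSC), pNSCs from GFP+ postnatal tail cells (Tail-pNSC), pNSCs from GFP+ adult lung cells (Lung-pNSC), tail cells (Tail) and lung cells (Lung). The Sox2-GFP mice carry GFP knocked into Sox2, and this experiment held 3 samples each of brain NSCs and of pNSCs from postnatal lung. In the Wnt1Cre-mTmG mice Cre under Wnt1 turns on GFP in the neural crest lineage while other cells keep Tomato. The 3 samples each of brain NSCs, postnatal tail pNSCs and postnatal dorsal root ganglion (DRG) pNSCs came from these mice, and the 3 samples of DRG NCSCs, which per the study came from ganglia of adult wild-type mice, were compared with them, so genotype and age differ as well as cell type and cannot be told apart from it. Adult mice were 4 to 6 weeks old and postnatal mice 1 to 5 days. A pNSC line was grown from a single cluster picked by hand after 3 weeks of culture, so a group may be a few clones or 1. The labels do not say whether replicates were separate cultures, and p-values then measure the spread between these samples, which may be technical.

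The samples held 9808246 to 22637031 counts, so 3 counts, the floor used for a gene at 0, corresponded to 0.13 to 0.295 cpm (counts of a gene scaled to 1 common library size, with edgeR's TMM factors). The shallowest libraries were the Wnt1Cre-mTmG brain NSCs and DRG pNSCs, at 9808246 to 11431445 counts. The chi-square per gene between replicates was 1.09 to 2.82 in all pairs but those with replicate 3 of the DRG NCSCs, where it was 16.8 and 21.0, and results for that group are given without it as well. The 5 NSC markers (Sox2, Olig2, Pax6, Sox1 and Nes) had counts in every NSC and pNSC group, summed to 2200 to 3450 cpm per sample. All 5 also had counts in DRG NCSCs, where they summed to 1370 to 1740 cpm, so their sum set NCSCs apart less than the crest markers did. The neural crest markers Sox10 and Ngfr stood at 646 to 902 cpm and 1186 to 1234 cpm in DRG NCSCs, and at no more than 15.5 and 3.67 cpm in any NSC or pNSC sample.

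Of the 79 members, 9 had no count in any sample, all of them Adam genes (Adam20, 24, 25, 26a, 26b, 29, 34, 39 and 6a), which are known mainly from testis. Another 12 stayed under 1 cpm in every group mean, 10 reached 1 to 10 cpm, 24 reached 10 to 100 cpm and 24 reached 100 cpm or more in their highest group. The highest group was DRG NCSCs for 26 members, lung cells for 18 and tail cells for 15. Only 11 members were highest in 1 of the 8 NSC and pNSC groups. In those 8 groups 37 members had means under 1 cpm throughout, and 30 had means of at least 1 cpm throughout.

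**Figure D1:**
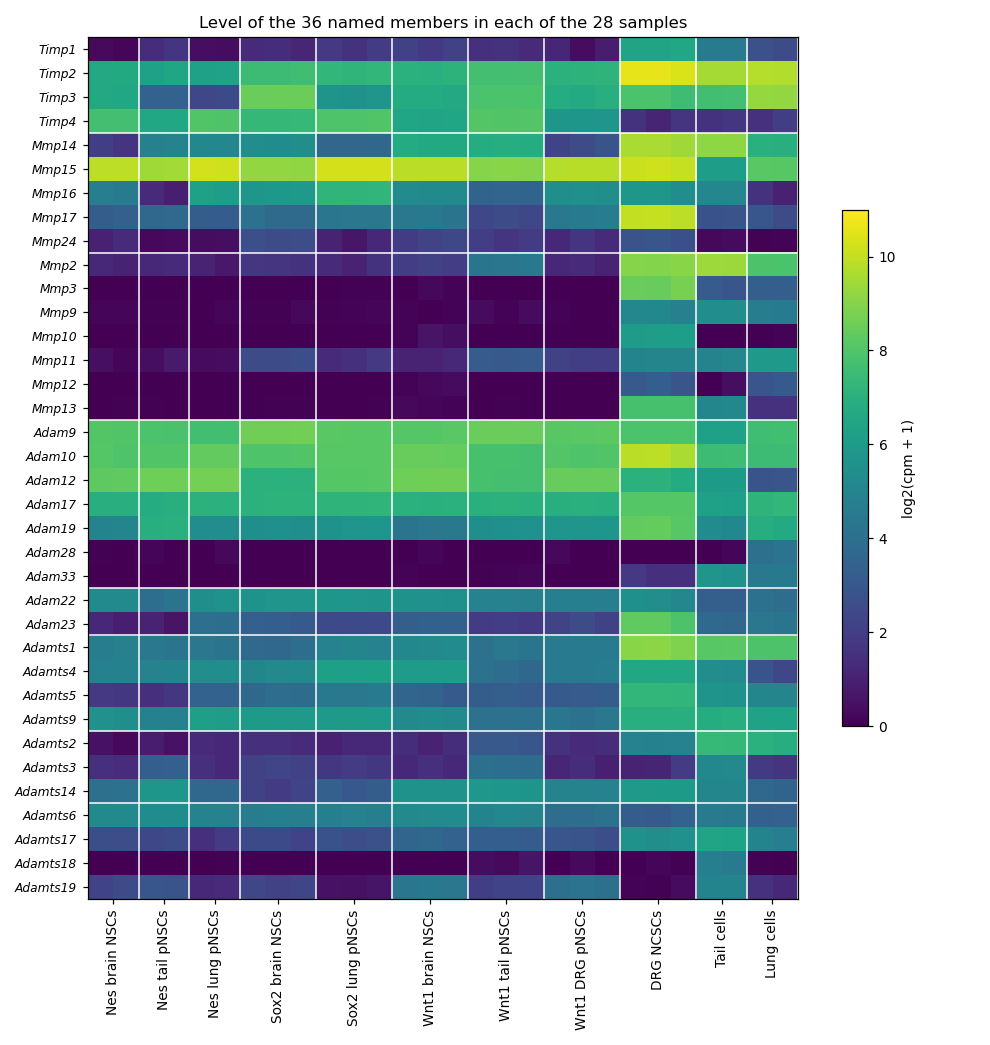
Heat map of the level of 36 named members (rows, by class) in 28 samples (columns, by group), as log2(cpm + 1) from 0 (dark) to 11 (yellow). The short names Nes, Sox2 and Wnt1 stand for the Nes-GFP, Sox2-GFP and Wnt1Cre-mTmG experiments. Mmp15 was bright in every NSC and pNSC sample, while Mmp3, Mmp9 and Mmp13 were dark in all of them, at 0.262 cpm or less.

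Levels of different genes were ranked per kilobase of exon, whereas shares and sums within a family, given further on, are of reads. Per kilobase Mmp15, a membrane-bound Mmp, led the members in all 8 NSC and pNSC groups, with means of 95.1 to 232 cpm per kilobase. It was followed there by Adam9 or Adam10, which reached 49.5 to 96.0 and 44.4 to 69.7 cpm per kilobase. The order was different elsewhere. The gelatinase Mmp2 led in tail cells, at 196 cpm per kilobase, ahead of Timp2 at 187. Timp2 led in lung cells at 221 and in DRG NCSCs at 380 cpm per kilobase, followed in the latter by Mmp3 at 210.

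Differences between groups were tested with edgeR's quasi-likelihood test, and a gene was called higher or lower when its Benjamini-Hochberg adjusted p over all genes tested was under 0.05 and its log2 fold change was at least 1 in size. Levels and changes are given as TMM-scaled cpm and as log2 fold change ± standard error. In bulk RNA, fewer cells of a type and less RNA per cell cannot be told apart.

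Against brain NSCs, pNSCs differed in a part of the family. In Nes-GFP tail pNSCs 8 of 57 members tested were higher and 6 lower, where 4.31% and 6.59% of all genes tested were. In Nes-GFP lung pNSCs 7 were higher and 5 lower, with 4.56% and 4.15% of all genes. In Sox2-GFP lung pNSCs 7 of 56 were higher and 7 lower, with 5.76% and 9.99% of all genes. In Wnt1Cre-mTmG tail pNSCs 12 of 51 were higher and 9 lower, with 9.16% and 9.05% of all genes. In Wnt1Cre-mTmG DRG pNSCs 2 of 51 were higher and 13 lower, with 3.12% and 6.41% of all genes. The median log2 fold change of the tested members lay at 0, 0, 0.05, -0.18 and -0.52 in this order, beside 0, 0, 0, 0.0039 and 0.013 over all genes. The 2 Nes-GFP comparisons share their brain NSCs, as do the 2 of Wnt1Cre-mTmG.

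Against tissue and against NCSCs most tested members were lower in pNSCs. Some of them had almost no reads in pNSCs and passed the filter only through tissue or NCSCs, so the filter set their direction. In Nes-GFP tail pNSCs, for example, Adam33, Adamts18, Mmp3 and Mmp8 had no count. The counts, medians and shares below include such genes. In tail pNSCs against tail cells 6 of 57 were higher and 32 lower, where 14.1% and 32.6% of all genes were. In lung pNSCs against lung cells 11 of 57 were higher and 33 lower, with 20.2% and 34.9% of all genes. In Sox2-GFP lung pNSCs against the same lung cells 11 of 56 were higher and 33 lower, with 21.3% and 34.9% of all genes. Those lung cells were placed with the Nes-GFP experiment, so here experiment and mice differ as well as cell type. Donor age may differ too, and none of these can be told apart, here or in the results for single genes. The median of the tested members was -2.46, -1.92 and -2.00, against -0.16, -0.15 and -0.12 over all genes. In the Wnt1Cre-mTmG experiment 32 of 51 members were higher in DRG NCSCs than in brain NSCs and 6 lower, with 22.1% and 14.8% of all genes. Tail pNSCs had 6 members higher and 34 lower than DRG NCSCs, with 15.3% and 22.6% of all genes. DRG pNSCs had 5 higher and 34 lower, with 15.1% and 23.3% of all genes. The medians were 2.49, -2.21 and -2.82, beside 0.015, -0.002 and -0.0035 over all genes. Without replicate 3 of the DRG NCSCs the counts were 32 and 6, 6 and 34, and 5 and 35, the largest shift of a named member was 0.676 on the log2 scale (Adamts19), no named member lost its call, and Timp3 in DRG pNSCs gained one.

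**Figure D2:**
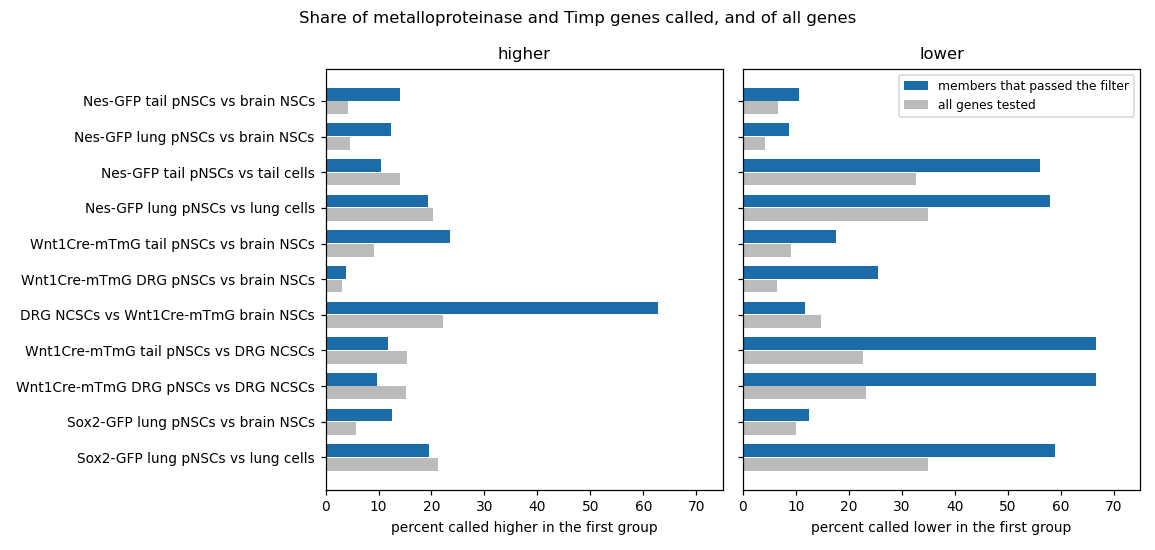
Bars of the percent of members that passed the filter (blue) and of all genes tested (grey) that were called higher (left) or lower (right) in the first group named, for 11 comparisons. Blue bars for lower members reach 56.1% to 66.7% in the 5 comparisons of pNSCs with tissue or NCSCs, where the grey bars stand at 22.6% to 34.9%. They include members that passed the filter only through tissue or NCSCs, whose direction was set by the filter.

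Mesenchymal and leukocyte markers were higher in the groups on the high side of these contrasts. Some other lists were higher in only part of them. The 6 mesenchymal markers (Col1a1, Col1a2, Col3a1, Dcn, Lum and Postn) were all lower in pNSCs than in tissue and NCSCs, as were all 6 leukocyte markers (Ptprc, Csf1r, Cd68, Lyz2, Itgam and Adgre1). Summed per sample, the mesenchymal markers stood at 73400 to 75300 cpm in tail cells, 4240 to 4340 cpm in lung cells and 6950 to 7060 cpm in DRG NCSCs. The leukocyte markers summed to 97.8 to 98.4 cpm in tail cells, 4360 to 4380 cpm in lung cells and 631 to 663 cpm in DRG NCSCs, and to no more than 3.95 cpm in any NSC or pNSC sample. Mesenchymal markers summed to 17.3 cpm or less in the NSC and pNSC samples other than the Wnt1Cre-mTmG tail pNSCs, where all 6 were called higher than in brain NSCs and summed to 466 to 478 cpm. Muscle markers were higher in tissue too, at 381 to 389 cpm in tail cells and 616 to 639 cpm in lung cells. Nes-GFP tail pNSCs had 45.6 to 49.6 cpm of them, and lung pNSCs 2.85 cpm or less. Against NCSCs muscle markers went the other way, at 5.32 to 6.18 cpm in DRG NCSCs and 57.3 to 59.0 cpm in Wnt1Cre-mTmG tail pNSCs. Epithelial markers summed to 3.59 to 5.30 cpm in DRG NCSCs, 374 to 377 in tail cells and 691 to 705 in lung cells. They were at 0.252 cpm or less in every pNSC sample. Neural crest and Schwann markers, Sox10 and Ngfr among them, summed to 738 to 747 cpm in tail cells and 0.76 to 0.80 cpm in Nes-GFP tail pNSCs. Lung cells also held lung epithelial (24900 to 25400 cpm) and endothelial markers (3950 to 4030 cpm), and tail cells keratinocyte markers (3810 to 3910 cpm). Whether all these markers came from other cells in the cultures and tissues, and their part in the results below, was not tested.

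The inhibitors differed from each other in where they were expressed. Timp4 was high in every NSC and pNSC group and low in tissue and NCSCs. Timp2 was the most abundant Timp by reads in tissue and NCSCs, and also in Wnt1Cre-mTmG brain NSCs and DRG pNSCs. Timp3 differed by the largest factor among NSC and pNSC groups. Timp4 supplied 47.9% to 75.7% of the reads of the 4 Timp genes in the Nes-GFP NSC and pNSC samples, 54.5% to 55.6% in Sox2-GFP lung pNSCs and 36.6% to 37.1% in Wnt1Cre-mTmG tail pNSCs. The share was 22.4% to 22.8% in Sox2-GFP brain NSCs, 26.2% to 27.3% in Wnt1Cre-mTmG brain NSCs and 16.9% to 18.4% in DRG pNSCs, but 0.136% to 0.237% in the tissue samples and 0.0656% to 0.136% in DRG NCSCs. Timp2 supplied 82.6% to 82.9% of Timp reads in DRG NCSCs, 39.5% to 41.5% in Wnt1Cre-mTmG brain NSCs and 44.7% to 46.4% in DRG pNSCs.

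Timp4, on chromosome 6 (115241892 to 115252205 in GRCm38), is an inhibitor best known from heart and brain. It stood at 208 and 206 cpm in Nes-GFP brain NSCs, 91.9 and 93.2 in tail pNSCs and 255 and 250 in lung pNSCs, while tail cells had 2.08 and 2.30 and lung cells 2.01 and 3.05. Every NSC and pNSC sample therefore lay above every tissue sample. The log2 fold change was 5.32 ± 0.096 in tail pNSCs against tail cells and 6.62 ± 0.076 in lung pNSCs against lung cells. Sox2-GFP lung pNSCs had 249 to 256 cpm and their brain NSCs 159 to 163, a log2 fold change of 0.65 that did not reach the limit for a call. In the Wnt1Cre-mTmG experiment tail pNSCs had 257 to 265 cpm, brain NSCs 84.0 to 89.9, DRG pNSCs 52.3 to 55.1 and DRG NCSCs 1.23 to 2.21. The tail pNSCs rose above brain NSCs by 1.58 ± 0.053 (edgeR adjusted p = 4.28e-14), whereas Nes-GFP tail pNSCs fell below theirs, at -1.16 ± 0.040 (adjusted p = 3.17e-186). Timp4 lies within Syn2, which is read from the opposite strand, and the counting is not stated to use strand, so reads of the 2 genes cannot be told apart.

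Timp3 binds to the matrix and inhibits Adam17 and several Adamts enzymes as well as Mmps. Nes-GFP brain NSCs had 101 and 96.6 cpm, tail pNSCs 10.1 and 10.1, and lung pNSCs 4.13 and 4.52. Both pNSC groups lay below the brain NSCs without overlap, with log2 fold changes of -3.29 ± 0.064 and -4.53 ± 0.075. Sox2-GFP lung pNSCs, at 49.4 to 52.9 cpm, were also below their brain NSCs, at 359 to 366 cpm (-2.84 ± 0.027). In the Wnt1Cre-mTmG experiment the order was the other way, with 233 to 234 cpm in tail pNSCs and 99.3 to 108 in brain NSCs (1.17 ± 0.068, adjusted p = 9.51e-11). DRG pNSCs, at 105 to 117 cpm, overlapped those brain NSCs. DRG NCSCs had 188 to 238 cpm, the lowest value being that of replicate 3, and DRG pNSCs stood at a log2 fold change of -1 (SE 0.068) against them, just short of a call. That difference was called without replicate 3, at -1.10. Timp3, on chromosome 10 (86300372 to 86349506), overlaps Syn3 on the opposite strand, with the same limit on its reads.

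Timp2 acts as a partner in the activation of Mmp2 by Mmp14 as well as an inhibitor. It stood at 77.2 and 88.9 cpm in Nes-GFP tail pNSCs, 77.5 and 79.8 in lung pNSCs and 98.2 and 101 in brain NSCs, against 721 and 736 in tail cells and 863 and 857 in lung cells. The tissue samples were all higher, and the pNSCs were lower, with log2 fold changes of -3.21 ± 0.038 and -3.49 ± 0.038. Against brain NSCs no pNSC group reached a call: the log2 fold change was -0.26 and -0.35 in Nes-GFP tail and lung pNSCs, -0.31 in Sox2-GFP lung pNSCs and 0.69 in Wnt1Cre-mTmG tail pNSCs. DRG NCSCs had 1342 to 1549 cpm and their brain NSCs 127 to 136, a rise of 3.50 ± 0.052 (adjusted p = 1.12e-19).

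Timp1, an inhibitor that many cells make on injury or inflammation, was at 3.48 cpm or less in all NSC and pNSC samples. DRG NCSCs had 83.8 to 92.2 cpm, tail cells 23.2 and 21.3, and lung cells 5.65 and 4.80. Nes-GFP tail pNSCs, at 1.60 and 2.23 cpm, were above their brain NSCs, at 0.203 and 0.146, a ratio of 11.1 with a 95% counting interval of 5.13 to 28.6. Wnt1Cre-mTmG DRG pNSCs had 0.295 to 1.27 cpm and were lower than their brain NSCs at 2.61 to 3.48 (-1.92 ± 0.30, adjusted p = 5.54e-05). Counting intervals and floors cover counting error only.

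**Figure D3:**
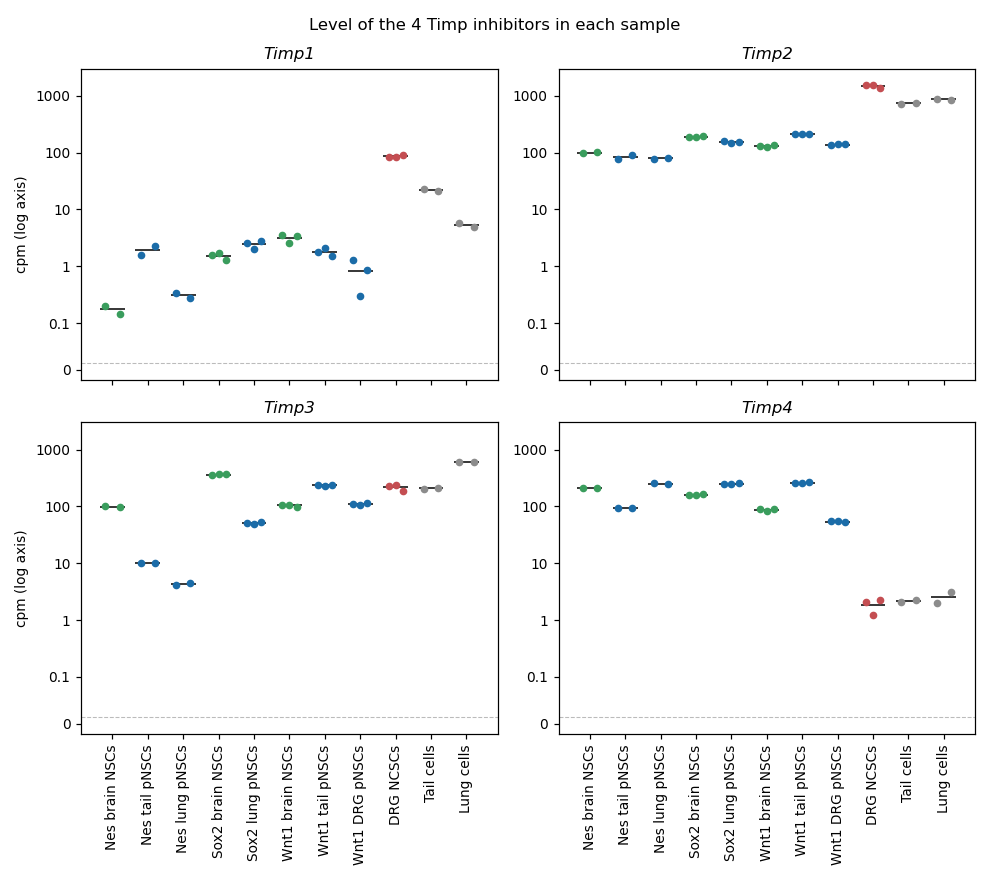
Level of Timp1, Timp2, Timp3 and Timp4 in each of 28 samples, in cpm on a log axis, by group (points are samples, black lines are group means, and values of 0 sit below the dashed line). Green marks brain NSCs, blue pNSCs, red DRG NCSCs and grey tissue. Timp4 is at 52.3 cpm or more in all NSC and pNSC samples and at 3.05 cpm or less in the rest, and Timp3 spans 4.13 to 366 cpm among NSCs and pNSCs.

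Among the 7 membrane-bound Mmps, Mmp15 was the most abundant in every NSC and pNSC group, and Mmp14 and Mmp16 differed between lines. In pNSCs against lung cells Mmp15, Mmp16 and Mmp24 rose and Mmp14, Mmp23 and Mmp25 fell in both lung experiments, and against tail cells Mmp15 rose and Mmp14, Mmp16, Mmp23 and Mmp25 fell. The Mmp24 call in Nes-GFP lung pNSCs rested on few counts, with a ratio of 5.30 and a 95% counting interval of 1.18 to 48.8, and was lost with any replicate left out. All 7 were lower in Wnt1Cre-mTmG tail pNSCs than in DRG NCSCs, and 5 were lower in DRG pNSCs, where 22.6% and 23.3% of all genes were. Mmp25 passed the filter only through tissue or NCSCs in these comparisons, so its direction was set by the filter.

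Mmp15 (MT2-MMP), on chromosome 8 (95352268 to 95375080), is a transmembrane Mmp that can activate Mmp2. It stood at 696 and 716 cpm in Nes-GFP tail pNSCs, 1215 and 1197 in lung pNSCs and 962 and 964 in brain NSCs, against 71.2 and 69.9 in tail cells and 290 and 285 in lung cells. All NSC and pNSC samples were above all tissue samples, by a log2 fold change of 3.24 ± 0.037 in tail pNSCs and 2.04 ± 0.032 in lung pNSCs. Against brain NSCs the value was -0.45 and 0.31 in Nes-GFP tail and lung pNSCs and -0.85 in Wnt1Cre-mTmG tail pNSCs, none of them called. Sox2-GFP lung pNSCs, at 1247 to 1260 cpm, rose above brain NSCs at 572 to 598 (1.10 ± 0.018). DRG NCSCs had 1033 to 1166 cpm, against 917 to 931 in the Wnt1Cre-mTmG brain NSCs (0.26, not called).

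Mmp14 (MT1-MMP), on chromosome 14 (54431612 to 54445364), is the main pericellular collagenase and the activator of Mmp2. Nes-GFP brain NSCs had 3.09 and 2.29 cpm, tail pNSCs 27.0 and 28.8, and lung pNSCs 34.2 and 32.7. Both pNSC groups lay above the brain NSCs, by 3.38 ± 0.11 (adjusted p = 5.42e-207) and 3.63 ± 0.10 (adjusted p = 2.32e-264). The brain NSCs of the other experiments had far more, 40.2 to 42.0 cpm in Sox2-GFP and 101 to 107 cpm in Wnt1Cre-mTmG, and their pNSCs did not rise above them. Sox2-GFP lung pNSCs had 11.4 to 12 cpm and fell by 1.82 ± 0.060 on the log2 scale (adjusted p = 1.15e-203). Wnt1Cre-mTmG tail pNSCs had 110 to 114 cpm, at 0.12 ± 0.059 (adjusted p = 0.0749), and DRG pNSCs 3.81 to 6.25 cpm, at -4.38 ± 0.098 (adjusted p = 9.42e-16). All were below the 553 and 563 cpm of tail cells and the 694 to 787 cpm of DRG NCSCs.

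Mmp16 (MT3-MMP), a membrane Mmp of brain, varied most of all members among the NSC and pNSC groups. Nes-GFP tail pNSCs had 1.54 and 0.912 cpm, their brain NSCs 24.8 and 22.6, and lung pNSCs 77.9 and 70.6. Tail pNSCs were thus lowest and lung pNSCs highest in that experiment, at -4.28 ± 0.16 and 1.64 ± 0.073 against brain NSCs. Sox2-GFP lung pNSCs had 144 to 152 cpm and their brain NSCs 56.2 to 58.8 (1.36 ± 0.032), and Wnt1Cre-mTmG tail pNSCs had 10.7 to 11 cpm and their brain NSCs 35.9 to 38.6 (-1.77 ± 0.10, adjusted p = 8.03e-11). Both lung pNSC groups were higher and both tail pNSC groups lower than brain NSCs. Lung cells had 2.06 and 0.997 cpm and tail cells 32.7 and 32.8, the reverse of the order of the pNSCs derived from them.

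Mmp17 (MT4-MMP), a GPI-anchored Mmp, set the NCSCs apart. DRG NCSCs had 960 to 1048 cpm, and no other sample of the series exceeded 24.2 cpm. Wnt1Cre-mTmG brain NSCs had 17.9 to 20.7 cpm, so the rise in NCSCs was 5.70 ± 0.066 (adjusted p = 4.50e-21). Tail pNSCs, at 4.03 to 4.97 cpm, were lower than those brain NSCs (-2.16 ± 0.099, adjusted p = 3.51e-12). Mmp24 (MT5-MMP), known from neurons, was low throughout, at 1.01 and 1.56 cpm in Nes-GFP brain NSCs and 4.89 to 5.36 cpm in Sox2-GFP brain NSCs. It was lower in Sox2-GFP lung pNSCs, at 0.604 to 1.38 cpm (-2.28 ± 0.19, adjusted p = 5.75e-31).

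**Figure D4:**
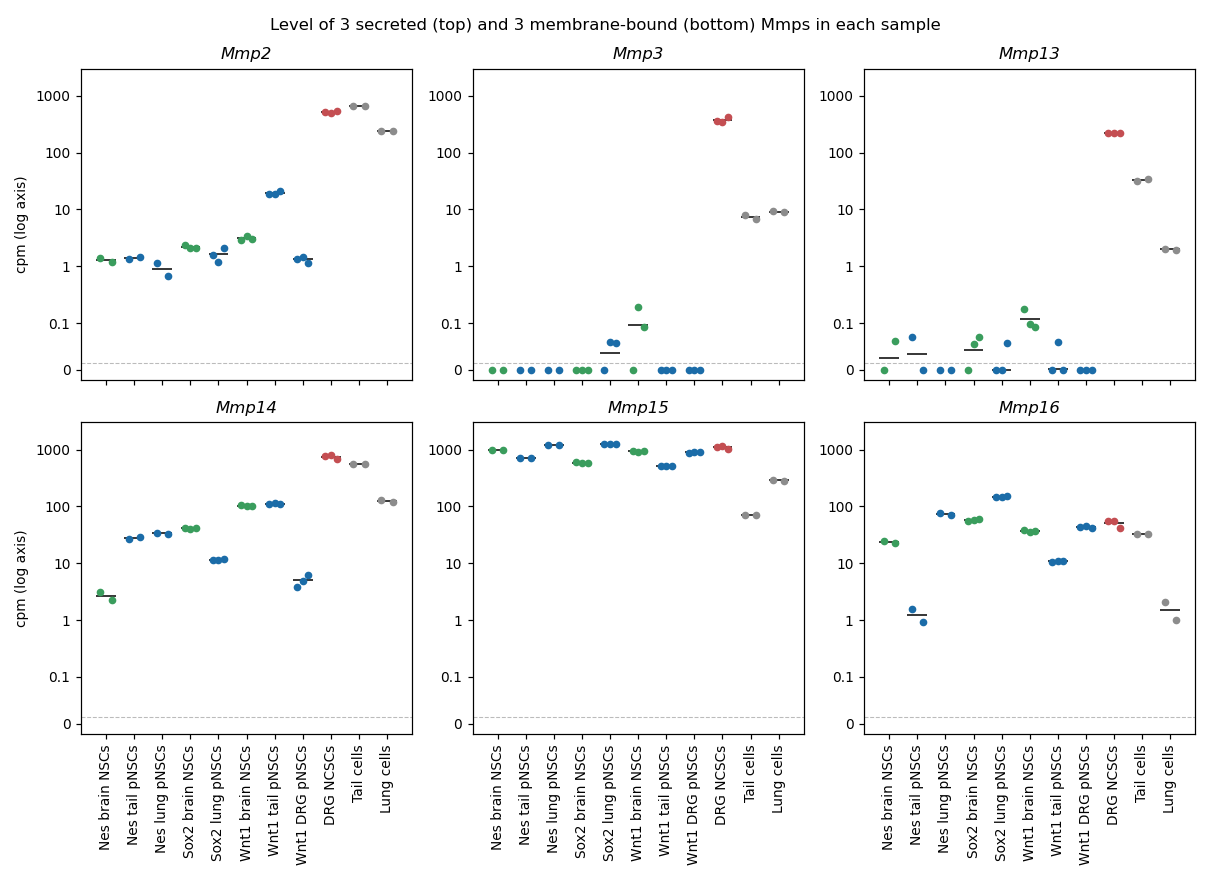
Level of the secreted Mmp2, Mmp3 and Mmp13 (top) and of the membrane-bound Mmp14, Mmp15 and Mmp16 (bottom) in each of 28 samples, in cpm on a log axis, by group (points are samples, black lines are group means, and values of 0 sit below the dashed line). Green marks brain NSCs, blue pNSCs, red DRG NCSCs and grey tissue. Mmp3 and Mmp13 are at 0.193 cpm or less in all NSC and pNSC samples, and Mmp14 is lowest in Nes-GFP brain NSCs, at 2.29 and 3.09 cpm.

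The secreted Mmps were nearly silent in NSCs and pNSCs and abundant in NCSCs and tissue. Summed over the 16 secreted Mmps, the level was 3.77 ± 0.243 cpm (SD, n = 2) in Nes-GFP tail pNSCs, 4.77 ± 0.0743 in brain NSCs and 796 in tail cells. The group means of the other NSC and pNSC groups were 5.92 to 11.3 cpm, with the exception of Wnt1Cre-mTmG tail pNSCs at 36.9 cpm. Lung cells had 408 cpm and DRG NCSCs 1369 cpm. Of the 16, 9 were tested against tissue and 10 in the Wnt1Cre-mTmG experiment. Mmp3, Mmp8, Mmp9, Mmp12 and Mmp13 were at or near 0 in all NSCs and pNSCs and passed the filter only through tissue, and Mmp1a, Mmp3, Mmp9, Mmp10, Mmp12 and Mmp13 only through DRG NCSCs, so the direction of these genes was set by the filter. The other secreted Mmps tested, Mmp2, Mmp11, Mmp19 and Mmp28, were lower in pNSCs than in tissue and than in NCSCs. The call for Mmp12 in the tail comparison rested on Tail replicate 2, which had 0.319 cpm against 0 in replicate 1, and was lost without it. With DESeq2 the Mmp12 calls of Nes-GFP tail and lung pNSCs against tissue were both lost.

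Mmp2, a gelatinase that cuts denatured and basement membrane collagen, accounted for most of the tissue signal. Tail cells had 665 and 659 cpm and lung cells 241 and 236, against 1.31 and 1.47 in tail pNSCs, 1.14 and 0.670 in lung pNSCs and 1.42 and 1.17 in brain NSCs. The tissue samples were higher throughout, and the log2 fold change was -8.97 ± 0.071 in tail pNSCs and -8.04 ± 0.086 in lung pNSCs. DRG NCSCs had 499 to 534 cpm, brain NSCs of that experiment 2.95 to 3.39, tail pNSCs 18.6 to 20.7 and DRG pNSCs 1.15 to 1.48. Tail pNSCs rose above brain NSCs by 2.63 ± 0.096 (adjusted p = 1.35e-13) and DRG pNSCs fell, at -1.23 ± 0.19 (adjusted p = 4.13e-05). The tail pNSCs were the samples with mesenchymal markers at 466 to 478 cpm, given above.

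Mmp3 (stromelysin), Mmp10 (another stromelysin) and Mmp13 (a collagenase) were secreted Mmps with high levels in NCSCs and almost no reads in the NSCs and pNSCs of that experiment. Mmp3 stood at 363, 347 and 422 cpm in DRG NCSCs, at 0, 0.193 and 0.0845 cpm in the brain NSCs and at 0 in all 6 pNSC samples of that experiment. Compared with NCSCs its level was at least 2700-fold lower in the tail pNSCs, and DRG pNSCs were at least 1350-fold lower, against a floor of 3 counts per library. Mmp13 was 222 to 224 cpm in NCSCs and 0.0845 to 0.179 cpm in brain NSCs, a ratio of 1860 with a 95% counting interval of 726 to 6820. Mmp10 was 67.4 to 70.0 cpm in NCSCs, 0.0893 to 0.483 in brain NSCs and 0 in the pNSCs, and so at least 490-fold lower in tail pNSCs. In tissue Mmp3 was 6.70 to 9.18 cpm and Mmp13 32.1 and 34.2 cpm in tail cells but 2.01 and 1.93 in lung cells, while Mmp10 had no count in tail cells and 0 and 0.0623 cpm in lung cells.

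These genes sit in a run of 10 Mmp genes on chromosome 9, from 7272514 to 7699585 in GRCm38, in the order Mmp13, Mmp12, Mmp1b, Mmp3, Mmp1a, Mmp10, Mmp8, Mmp27, Mmp20 and Mmp7. Their promoters are shown because 5 genes of the run were called higher in DRG NCSCs than in brain NSCs, where 22.1% of all genes were. These were Mmp13, Mmp12, Mmp3, Mmp1a and Mmp10. All 5 passed the filter only through DRG NCSCs, so this direction was set by the filter. Each sequence is the 120 bases before a RefSeq start on the plus strand of GRCm38.p6, and the capitals mark TGACTCA or TGAGTCA, each the reverse complement of the other, which is the motif of the AP-1 factors (Fos and Jun). They are Mmp13 at chr9:7272394-7272513, Mmp12 at chr9:7347254-7347373, Mmp3 at chr9:7445702-7445821, Mmp1a at chr9:7464021-7464140, Mmp10 at chr9:7502222-7502341 and, as a neighbour without the motif, Mmp8 at chr9:7558309-7558428.
Mmp13: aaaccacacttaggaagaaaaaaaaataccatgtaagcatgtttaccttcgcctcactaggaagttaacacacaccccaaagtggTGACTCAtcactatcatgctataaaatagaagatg
Mmp12: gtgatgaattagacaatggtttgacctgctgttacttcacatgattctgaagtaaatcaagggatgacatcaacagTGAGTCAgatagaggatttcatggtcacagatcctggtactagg
Mmp3: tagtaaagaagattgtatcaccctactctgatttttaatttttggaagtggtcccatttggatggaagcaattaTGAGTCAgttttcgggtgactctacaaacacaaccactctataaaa
Mmp1a: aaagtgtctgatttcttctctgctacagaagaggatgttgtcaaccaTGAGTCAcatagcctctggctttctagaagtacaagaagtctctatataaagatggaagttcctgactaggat
Mmp10: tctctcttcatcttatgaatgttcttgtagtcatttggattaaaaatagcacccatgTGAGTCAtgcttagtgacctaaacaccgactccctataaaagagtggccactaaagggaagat
Mmp8: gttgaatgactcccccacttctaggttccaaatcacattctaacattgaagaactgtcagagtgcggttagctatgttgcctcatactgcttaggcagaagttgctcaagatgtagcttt

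The motif began 35 bases before the start in Mmp13, 44 in Mmp12, 46 in Mmp3, 63 in Mmp10 and 73 in Mmp1a. Over windows from 250 bases before to 50 after the start, 7 of the 12 promoters of the run held it (58.3%), as did 1709 of all 32851 promoters (5.2%) and 3 of 42 promoters of members elsewhere (7.14%). The other 2 of the 7 were Mmp1b (0.350 to 0.709 cpm in NCSCs) and Mmp7 (0 to 0.0463 cpm), which were too low to be tested. A further RefSeq start of Mmp12 and of Mmp7 lacked it, and Mmp8, Mmp27 and Mmp20 lacked it as well. A match of these letters is a description of the sequence and says nothing of a factor bound there. Mmp1a, a collagenase, had 2.98 to 4.21 cpm in NCSCs and 0 in all tissue and pNSC samples. Mmp8, the neutrophil collagenase, had 5.74 and 6.51 cpm in tail cells, 5.54 and 6.61 in lung cells, 0.509 to 0.567 in NCSCs and no count in any NSC or pNSC sample. Mmp1a and Mmp8 were chosen for their place in the run after their values were seen.

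Mmp9, the other gelatinase, had 41.0 and 41.7 cpm in tail cells, 24.2 and 21.8 in lung cells and 26.8 to 33.8 in NCSCs, and 0.262 cpm or less in every NSC and pNSC sample. Mmp12, the macrophage elastase, was 6.41 and 7.79 cpm in lung cells and 6.41 to 8.70 cpm in NCSCs. In tail cells, where all 6 leukocyte markers also had counts, it was 0 and 0.319 cpm. It had no count in the pNSCs, at least 45.9-fold lower than in lung cells. Mmp11 (stromelysin-3), which is known from stromal cells, was 60.2 and 60.5 cpm in lung cells, 29.3 and 33.0 in tail cells and 30.3 to 30.8 in NCSCs. In Wnt1Cre-mTmG tail pNSCs it was 7.36 to 7.87 cpm, above brain NSCs at 1.06 to 1.35 (2.71 ± 0.15, adjusted p = 2.87e-11).

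The most even members among NSCs and pNSCs were Adams of somatic tissues, namely Adam17, Adam10, Adam15 and Adam9. Others of that class varied more between the lowest and highest group mean, Adam8 by 1.45, Adam12 by 1.65 and Adam19 by 2.67 on the log2 scale. Adam17, the sheddase of TNF and EGF-family ligands, had group means of 114 cpm (tail pNSCs) to 143 cpm (Sox2-GFP lung pNSCs) across the 8 NSC and pNSC groups, the smallest range of any member measured in all of them. Tail cells were at 78.2 and 73.7 cpm, and the log2 fold change of tail pNSCs against them was 0.51 ± 0.044. Adam10, the main alpha-secretase and Notch sheddase, had means of 218 to 342 cpm in the same groups. It was not called against brain NSCs in any experiment, with 0.29 in Nes-GFP lung pNSCs, -0.65 in Wnt1Cre-mTmG tail pNSCs and -0.41 in DRG pNSCs. In DRG NCSCs both were higher than in brain NSCs, Adam10 at 778 to 949 cpm (1.39 ± 0.056, adjusted p = 1.52e-13) and Adam17 at 273 to 274 cpm (1.11 ± 0.037, adjusted p = 1.03e-14). Adam9, a broadly expressed Adam, had means of 204 to 395 cpm and was not called against brain NSCs either, at -0.48 in Sox2-GFP lung pNSCs and 0.38 in Wnt1Cre-mTmG tail pNSCs.

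Adam12, known from regenerating muscle and as a sheddase of IGF-binding proteins, was higher in NSCs and pNSCs than in tissue. Nes-GFP tail pNSCs had 377 and 383 cpm, lung pNSCs 420 and 415 and brain NSCs 309 and 315, against 62.2 and 62.1 in tail cells and 6.19 and 6.67 in lung cells. All were above tissue, by 2.53 ± 0.041 in tail pNSCs and 5.99 ± 0.060 in lung pNSCs. Against brain NSCs the log2 fold change was 0.28 and 0.41 in these pNSCs and -0.84 in Wnt1Cre-mTmG tail pNSCs, without a call. Sox2-GFP lung pNSCs, at 275 to 282 cpm, rose above brain NSCs at 131 to 134 (1.07 ± 0.025). DRG NCSCs had 108 to 133 cpm and were lower than brain NSCs at 383 to 396 (-1.64 ± 0.055, adjusted p = 9.73e-15).

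Adam19, which sheds neuregulin, was higher in tail and DRG pNSCs than in brain NSCs. Nes-GFP tail pNSCs had 121 and 125 cpm and their brain NSCs 29.5 and 31.1 (2.02 ± 0.056, adjusted p = 2.55e-277). Wnt1Cre-mTmG tail pNSCs had 43.3 to 45.8 cpm, DRG pNSCs 52.6 to 54.1 and brain NSCs 17.6 to 20.5, with rises of 1.21 ± 0.081 (adjusted p = 5.78e-10) and 1.47 ± 0.084 (adjusted p = 2.43e-10). The lung pNSC groups were not called. DRG NCSCs had 278 to 338 cpm, above all other samples. Adam33 and Adam28 were highest in tissue. In the fits with tissue both passed the filter only through tissue, so a lower level in pNSCs was set by the filter. Adam33, known from airway mesenchyme, had 52.1 and 46.5 cpm in tail cells and 20.3 and 20.5 in lung cells and no count in the pNSCs of the Nes-GFP experiment, at least 305-fold and 132-fold lower. DRG NCSCs had 1.81 to 2.50 cpm of it. Adam28, an Adam of lymphocytes and epididymis, had 15.8 and 17.3 cpm in lung cells and at most 0.169 cpm elsewhere.

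The brain Adams without a catalytic site act as adhesion partners and as receptors for LGI proteins. Adam22 had 14.5 and 17.7 cpm in Nes-GFP tail pNSCs and 35.8 and 35.8 in brain NSCs (-1.14 ± 0.087, adjusted p = 1.26e-37). It was not called in Wnt1Cre-mTmG tail and DRG pNSCs, at -0.74 and -0.87. Adam23 was 317, 320 and 243 cpm in DRG NCSCs and 9.11 to 9.67 in their brain NSCs (4.96 ± 0.11, adjusted p = 1.94e-17). In Nes-GFP lung pNSCs it was 15.6 and 14.8 cpm against 1.37 and 0.925 in brain NSCs (3.72 ± 0.19, adjusted p = 5.24e-83), and all other pNSC groups had 4.73 cpm or less.

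The Adamts proteoglycanases cut the lecticans, the chondroitin sulfate proteoglycans of the brain matrix. Adamts1 was 280 and 291 cpm in tail cells, 243 and 245 in lung cells and 470 to 545 in DRG NCSCs, against 12.2 to 38.5 cpm across all NSC and pNSC samples. Tail pNSCs, at 20.1 and 17.5 cpm, were lower than tail cells (-4.01 ± 0.051). Adamts4 differed by tissue. In tail pNSCs it was 28 and 29.4 cpm against 41.1 and 38.6 in tail cells (-0.56, not called), and DRG pNSCs, at 21.5 to 24.4 cpm, were below NCSCs at 92.9 to 95.1 (-2.07 ± 0.075, adjusted p = 3.36e-14). It was 42.2 and 40.5 cpm in Nes-GFP lung pNSCs and 73.0 to 74.9 in Sox2-GFP lung pNSCs, against 6.25 and 4.18 in lung cells, rises of 2.94 ± 0.11 (adjusted p = 3.82e-159) and 3.79 ± 0.078. In Wnt1Cre-mTmG tail pNSCs, at 12.3 to 16.5 cpm, it was lower than in brain NSCs at 64.5 to 67.1 (-2.18 ± 0.077, adjusted p = 8.73e-14).

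Adamts5, the main aggrecanase of cartilage, had 149 to 157 cpm in DRG NCSCs and 7.77 to 11 in their brain NSCs (4.01 ± 0.080, adjusted p = 6.05e-18). Nes-GFP lung pNSCs, at 9.96 and 10.3 cpm, were above brain NSCs at 2.54 and 2.44 (2.02 ± 0.17, adjusted p = 1.06e-32). Adamts9, a versicanase, was 16.8 to 17.0 cpm in Wnt1Cre-mTmG tail pNSCs and 37.6 to 40.2 in brain NSCs (-1.19 ± 0.061, adjusted p = 1.58e-11). It was not called in Nes-GFP tail and lung pNSCs, at -0.70 and 0.63. Of the 4 lecticans, Bcan and Ncan, the brain forms, were higher in pNSCs than in tissue and than in NCSCs in all 5 of those comparisons. Bcan and Ncan were not on the preset list of named genes, and the other lecticans, Acan and Vcan, are not described here.

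The procollagen N-proteinases remove the end of fibrillar procollagens. Adamts2 had 165 and 160 cpm in tail cells and 129 and 116 in lung cells, against 0.800 and 0.456 in tail pNSCs and 1.52 and 1.34 in lung pNSCs (-8.11 ± 0.12 and -6.45 ± 0.10). In Wnt1Cre-mTmG tail pNSCs it was 6.69 to 7.5 cpm, above brain NSCs at 1.16 to 1.70 (2.23 ± 0.15, adjusted p = 8.18e-10). Adamts3 was higher than in brain NSCs in both tail pNSC groups, at 8.74 and 9.48 cpm against 1.83 and 1.61 in Nes-GFP (2.41 ± 0.19, adjusted p = 3.49e-34) and at 14.0 to 15.8 against 1.34 to 1.84 in Wnt1Cre-mTmG (3.28 ± 0.23, adjusted p = 9.48e-10). Adamts14 was higher in Nes-GFP tail pNSCs, at 55.1 and 54.4 cpm against 15.8 and 16 (1.78 ± 0.082, adjusted p = 7.62e-102), and in Sox2-GFP lung pNSCs, at 7.20 to 9.33 against 2.90 to 3.67 (1.33 ± 0.13, adjusted p = 2.15e-25).

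Of the remaining Adamts genes, Adamts19 was highest in tail cells, at 30.0 and 30.3 cpm. It was 19.1 to 20.9 cpm in Wnt1Cre-mTmG brain NSCs, 15.8 to 17.2 in DRG pNSCs (-0.29, not called), 3.06 to 3.63 in tail pNSCs (-2.53 ± 0.11, adjusted p = 1.84e-12) and 0.0473 to 0.233 in NCSCs, a ratio of 170 below the brain NSCs with a 95% counting interval of 81.8 to 423. Sox2-GFP lung pNSCs, at 0.418 to 0.533 cpm, were lower than brain NSCs at 3.54 to 4.03 (-3.02 ± 0.25, adjusted p = 9.28e-33). Adamts18 was found in tail cells, at 25.9 and 21.4 cpm, and was at least 146-fold lower in Nes-GFP tail pNSCs, which had no count. It passed the filter there only through tail cells, so this direction was set by the filter. Adamts17 was 83.8 and 81.2 cpm in tail cells and 4.17 and 4.86 in tail pNSCs (-4.27 ± 0.10). Adamts6 was 14.2 to 16.1 cpm in Wnt1Cre-mTmG DRG pNSCs and 36.3 to 39.2 in brain NSCs (-1.35 ± 0.091, adjusted p = 1.83e-09).

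Across the 8 NSC and pNSC groups, 30 members had means of at least 1 cpm in each, and their spread differed widely. Adam17, Adam10, Adam15 and Adam9 varied by less than 1 on the log2 scale between the lowest and highest group. Mmp16 spanned 6.91, Timp3 6.39, Mmp14 5.38 and Adamts14 4.03. For Mmp14 and Timp3 the brain NSC groups alone covered 2.69 to 103 cpm and 98.7 to 363 cpm. The groups of different experiments came from different mice and lines, which cannot be told apart from the experiment.

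A list of 34 partners, regulators and lectican substrates, 32 or 33 of them tested, was counted in the same way. Against brain NSCs, 4 were higher and 2 lower in Nes-GFP tail pNSCs (4.31% and 6.59% of all genes), 5 and 4 in lung pNSCs (4.56% and 4.15%) and 5 and 5 in Sox2-GFP lung pNSCs (5.76% and 9.99%). In the Wnt1Cre-mTmG experiment the counts were 9 and 3 in tail pNSCs (9.16% and 9.05% of all genes) and 2 and 3 in DRG pNSCs (3.12% and 6.41%). Against tissue the tail pNSCs had 7 higher and 19 lower (14.1% and 32.6%), Nes-GFP lung pNSCs 9 and 17 (20.2% and 34.9%), and Sox2-GFP lung pNSCs 10 and 15 (21.3% and 34.9%). DRG NCSCs had 21 higher and 8 lower than brain NSCs (22.1% and 14.8%), and against NCSCs tail pNSCs had 8 and 17 (15.3% and 22.6%) and DRG pNSCs 8 and 20 (15.1% and 23.3%). Reck, a membrane inhibitor of several Mmps, and the urokinase genes Plau and Plaur, whose product starts plasmin and so the activation of Mmps, were lower in pNSCs than in tissue and than in NCSCs in all 5 comparisons. Plat, tissue plasminogen activator, and Serpine2, an inhibitor of serine proteinases, were higher in pNSCs in the same 5. These genes were named after their values were seen.

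The change from brain NSCs to pNSCs was compared between experiments with a test of the difference itself. Between the tail pNSCs of the Nes-GFP and Wnt1Cre-mTmG experiments 10 of 62 members had a more positive and 7 a more negative change in Nes-GFP, where 7.05% and 8.96% of all genes did. Between the lung pNSCs of the Nes-GFP and Sox2-GFP experiments the numbers were 8 and 6, with 8.24% and 5.89% of all genes. Timp3 and Timp4 in tail pNSCs and Mmp14 in lung pNSCs were called in opposite directions in the experiments compared. The differences in log2 fold change were -4.45 for Timp3, -2.74 for Timp4 and 5.47 for Mmp14. The mice, the age of the lung donors and the sort differ between these experiments, and they cannot be told apart.

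**Figure D5:**
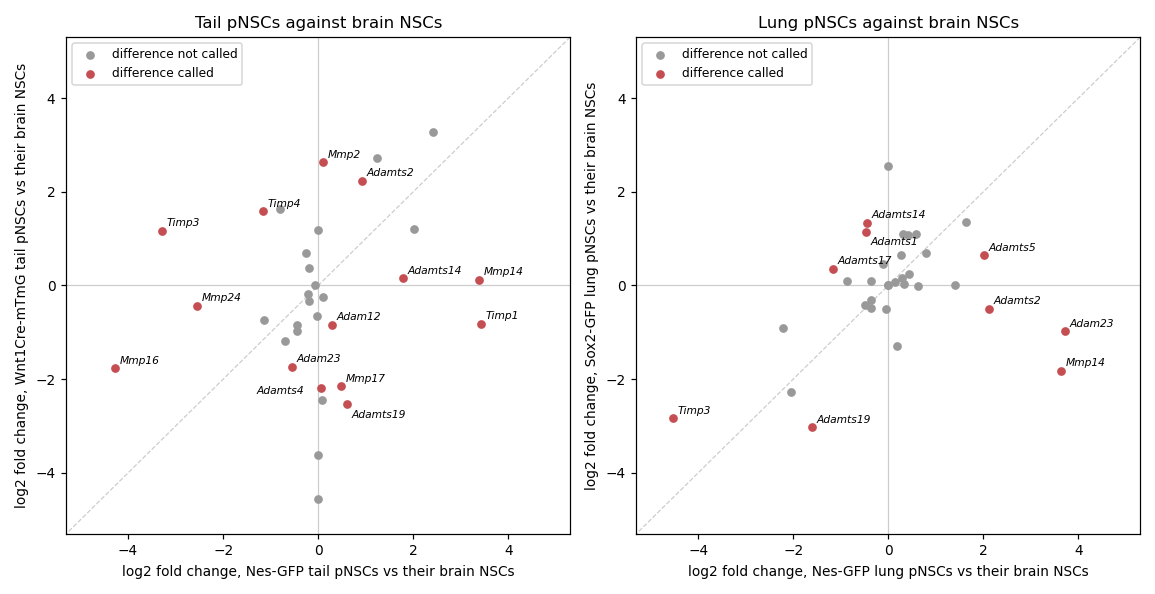
Log2 fold change of each named member in pNSCs against the brain NSCs of the same experiment, with Nes-GFP on the x axis and Wnt1Cre-mTmG tail (left) or Sox2-GFP lung (right) on the y axis. The dashed line marks equal change, and red points are members whose difference was called. Timp3 lies at -3.29 and 1.17 in the left panel and Mmp14 at 3.63 and -1.82 in the right panel.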

How the data were processed

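Libraries were single-end poly(A) RNA-seq (NextSeq500). The deposited values are raw counts per gene, which the authors made with HISAT2 and HTSeq on GRCm38, and Cufflinks is also named in their notes. The strand setting is not given in the sources used here, and 20 of the 79 members share exon bases with another gene. Samples were grouped by their labels, and all 28 count columns were used. Counts were scaled by TMM, filtered with filterByExpr (minimum count 10) and fitted with edgeR 4.0.16 (limma 3.58.1, R 4.3.3) in 1 model per experiment: 16948 genes in 10 Nes-GFP samples, 14448 in 12 Wnt1Cre-mTmG samples and 16234 in 8 Sox2-GFP samples including the 2 lung samples. Differences between experiments used 1 model of all 28 samples (17393 genes). The tests were two-sided, and the procedure was tested on simulated data. Of the members 57, 51 and 56 passed the filter, some only through the group in which they were high. Where a group had no count, folds are bounds against 3 counts per library; with fewer than 10 summed counts they are ratios with exact 95% intervals. Members were named by a preset list plus, in each comparison, the 3 largest rises and 3 largest falls reaching 5 cpm. The members and lists were chosen with earlier results of these data known. Promoters are from RefSeq (GRCm38.p6), found for 49 members, and gene positions from GENCODE. Same-numbered replicates were not paired: their deviations correlated at -0.011 to 0.0519. Alternatives were DESeq2 1.42.0, other scaling and filters, no limit on fold change, a replicate block, other sample sets and leaving out each replicate. One marker gene is not reported here.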

Additional observations from a re-analysis of the deposited data

Results flagged for a closer look

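The change from brain NSCs to pNSCs was compared between experiments by edgeR's test of the difference itself. It differed for 14 named members in tail pNSCs and 9 in lung pNSCs. Of all genes, 7.05% had a more positive and 8.96% a more negative change in tail pNSCs, and 8.24% and 5.89% in lung pNSCs. The named list was partly filled with the largest changes of these comparisons, which can raise a count among them. In tail pNSCs, Nes-GFP minus Wnt1Cre-mTmG, the difference in log2 fold change was positive for Timp1 (4.24, from 3 and 4 counts in Nes-GFP brain NSCs), Mmp14 (3.26), Adamts19 (3.15), Mmp17 (2.64), Adamts4 (2.24), Adamts14 (1.63), Adam23 (1.20) and Adam12 (1.13). It was negative for Timp3 (-4.45), Timp4 (-2.74), Mmp2 (-2.52), Mmp16 (-2.51), Mmp24 (-2.12, from few counts) and Adamts2 (-1.31). The calls for Adam23 and Adamts2 were lost when single replicates were left out, with lowest sizes of 0.59 and -0.59. The Wnt1Cre-mTmG tail pNSCs, in which Mmp2 and Adamts2 rose, were the NSC-type samples with mesenchymal markers at 466 to 478 cpm, whose part in these differences was not tested.

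In lung pNSCs, Nes-GFP minus Sox2-GFP, the difference was positive for Mmp14 (5.47), Adam23 (4.70), Adamts2 (2.62), Adamts19 (1.44) and Adamts5 (1.38) and negative for Adamts14 (-1.77), Timp3 (-1.68), Adamts1 (-1.60) and Adamts17 (-1.51). For Mmp14 the brain NSCs stood at 2.69 cpm on average in Nes-GFP and at 41.2 cpm in Sox2-GFP, while the lung pNSCs stood at 33.5 and 11.6 cpm.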

How the results depend on the processing

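Numbers of members called were recomputed under 179 alternatives to 13 counts, and 171 stayed within 1.5 times. Without the limit on fold change the count rose to 26 in Nes-GFP tail pNSCs and 31 in lung pNSCs against brain NSCs. It rose to 35 in Wnt1Cre-mTmG tail pNSCs, 27 in DRG pNSCs and 36 in Sox2-GFP lung pNSCs. For the differences between tail and between lung experiments it rose to 29 and 26. Dropping that limit can only add calls, among all genes as among members, so the rise is no result about the members. The filter at a mean count of 100 left 27 for Sox2-GFP lung pNSCs against lung cells, since fewer genes were tested. Leaving out 1 replicate moved no count by over 1.5 times: Nes-GFP tail and lung pNSCs against brain NSCs gave 14 to 16 and 11 to 14, and DRG NCSCs against brain NSCs 38 to 40. Same-numbered samples shared only a number, and with it as a replicate block the counts against brain NSCs were 15 (Nes-GFP tail), 12 (Nes-GFP lung), 22 (Wnt1Cre-mTmG tail), 15 (DRG) and 14 (Sox2-GFP lung). That block ended 1 named call, Mmp24 in lung pNSCs against lung cells, at 2.25. No single-gene value reversed its sign. Calls on few counts (Mmp12, Mmp13, Mmp24) were those most often lost. With DESeq2, Mmp12 lost its call in Nes-GFP tail and lung pNSCs against tissue. Depth limits members under 1 cpm.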

Other observations

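Some members outside the named list had patterns of their own and were chosen after their values were seen. Mmp19, a secreted Mmp of many adult tissues, was 5.88 and 6.75 cpm in Nes-GFP lung pNSCs, 0.914 and 0.760 in tail pNSCs and 2.28 and 2.48 in brain NSCs, so lung pNSCs lay above (1.39 ± 0.20) and tail pNSCs below the brain NSCs (-1.51 ± 0.31). Sox2-GFP lung pNSCs, at 3.92 to 4.18 cpm, were above theirs by 1.05 ± 0.17, a call lost with upper-quartile scaling (0.99) and without brain NSC replicate 1 (0.95), and DRG NCSCs had 68.4 to 74.6 cpm (4.37 ± 0.10). Mmp28 (epilysin) was 7.91 to 9.18 cpm in Wnt1Cre-mTmG tail pNSCs and 1.26 to 2.23 in brain NSCs (2.34 ± 0.17).

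Adamts7, which cuts cartilage oligomeric matrix protein, was higher in pNSCs than in tissue, at 128 and 137 cpm against 42.3 and 35.1 in the tail (1.69 ± 0.056) and at 61.5 and 63.0 against 7.99 and 7.54 in the lung (2.96 ± 0.085). Adamts12, its closest relative, was 52.5 and 52.9 cpm in Nes-GFP lung pNSCs and 12 and 11.3 in lung cells (2.14 ± 0.081), but Sox2-GFP lung pNSCs had 13.9 to 15.3 cpm and were below their brain NSCs at 44.6 to 51.0 (-1.72 ± 0.057). Adamts15, a proteoglycanase, was 125 and 127 cpm in lung cells and 0.474 and 0.223 in lung pNSCs (-8.46 ± 0.145). Adam3, known from sperm, had 1.68 and 1.87 cpm in lung cells, and its only other reads, 2 in all, were in 1 tail sample.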
